A study of Mus musculus with 4 samples.

Results

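Phosphorylation of the alpha subunit of eIF2, the factor that brings initiator tRNA to the ribosome, is the step at which several stress signals converge on translation. Phosphorylated eIF2 blocks its own exchange factor eIF2B, which lowers translation in general while a few messages such as Atf4 are translated more. Each of the kinases reads another signal, and phosphatase complexes of protein phosphatase 1 with a targeting subunit reverse the mark. Transcript levels of this machinery are described here for 8 genes, found as the rows of the count tables whose gene name equals a listed name (8 of 49997 genes). They are the kinases Eif2ak1 (HRI), Eif2ak2 (PKR), Eif2ak3 (PERK) and Eif2ak4 (GCN2), the substrate Eif2s1 (eIF2 alpha), the phosphatase subunit Ppp1r15b (CReP), the GCN2 activator Gcn1 and the GCN2 inhibitor Impact. All 8 passed the filter on low counts.

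The RNA came from the AGM (aorta, gonad and mesonephros), the embryonic site where blood stem cells arise, dissected from C57BL/6J mice and grown as explants for 48 hours on a filter between gas and liquid, in medium with hydrocortisone. The 2 libraries of the untreated group and the 2 of the group given CCCP (5 µM for the 48 hours), a compound that carries protons across membranes and dissipates the mitochondrial potential, share strain, culture and tissue. The series design names E10.5 and c-kit+ cells, whereas the growth protocol adds E11.5 embryos and, by the extraction protocol, the RNA was that of explants. Nothing in the labels says that the libraries came from separate pools of embryos, so p-values measure the spread between these libraries only, which may be technical.

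The libraries held 37360968 to 48827826 counted reads. Transcripts of many cell types were present: Kit, the stem cell factor receptor, lay between 47.6 and 63.2 CPM (reads per 1000000 counted, with library sizes scaled by the trimmed mean of M-values). Ptprc, the leukocyte antigen CD45, had 6.85 and 6.82 CPM untreated and 3.65 and 3.39 CPM with CCCP (log2 fold change -0.96, adjusted p 0.216 in edgeR and 0.0459 in DESeq2). Of 8 tested markers of blood stem and progenitor cells, 2 were above and 6 below 0 in log2 fold change. Ptprc was the 1 with an unadjusted edgeR p under 0.05. Spi1, another of them, was higher with CCCP (4.63 and 3.85 CPM untreated, 5.71 and 5.65 CPM with CCCP). Ptprc lay lower and Spi1 higher without overlap, as did 24.8% and 24% of all genes. Of 5 macrophage markers, 3 were above and 2 below 0. Of these 5, 2 lay higher without overlap and 0 lower, beside 24% and 24.8% of all genes. At an unadjusted edgeR p under 0.05, 2 macrophage markers were higher and 0 lower, beside 5.45% and 9.16% of all genes. The mesenchymal markers summed to 997 to 1502 CPM, the neural markers to 1203 to 1440 CPM and the erythroid markers to 2299 to 4340.4 CPM. Hepatic markers separated the groups, with a sum of 919.8 to 1592 CPM untreated and 50.6 to 100.4 CPM with CCCP. Endothelial markers were below 0 in log2 fold change for 7 of 7 genes (median -0.23). Their sums were 419 and 538 CPM untreated and 404 and 389.5 CPM with CCCP. Of these 7 genes, 3 lay lower without overlap, beside 24.8% of all genes. At an unadjusted edgeR p under 0.05, 2 of them were lower, beside 9.16% of all genes. In such bulk RNA, fewer cells of a type and less RNA per cell cannot be told apart. Across all 19837 genes tested, 0% (0 genes) passed an adjusted p-value of 0.05 in the quasi-likelihood test of edgeR, adjusted by Benjamini and Hochberg. DESeq2 called 594 genes, and 2899 genes had an unadjusted edgeR p under 0.05.

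None of the 8 genes passed that adjusted threshold in edgeR, or in DESeq2, where 2.99% of all genes did. At an unadjusted edgeR p under 0.05 there was 1 of 8, Eif2ak2, which was lower with CCCP. Among all genes tested, 9.16% were lower at that level and 14.6% differed in either direction, so 1 of 8 is near the background. The groups did not overlap for 4 of the 8, with Eif2ak1 and Gcn1 higher and Eif2ak2 and Eif2ak4 lower in both CCCP libraries, against 48.8% of all genes. Log2 fold changes (CCCP over untreated) ran from -0.54 to 0.18, with 4 above and 4 below 0 and a median of 0.03, beside a median of -0.01 over all genes. The median of the 8 ran from -0.11 to 0.08 over 15 alternatives. Among these, 1 of the 8 was called where the replicate number was a block (Eif2ak2, beside 10.7% of all genes) and 1 where the length trend was removed as well (Gcn1, beside 6.26%). None was called in the other settings, beside 3.43% of all genes without the filter on low counts, 4.93% with the GC trend taken out beside the block, 6.89% in DESeq2 with the block, and 0.00504% to 0.171% with 1 library left out (0.00504% without replicate 1 of either group, 0.171% without untreated replicate 2 and 0.111% without CCCP replicate 2).

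**Figure D1:**
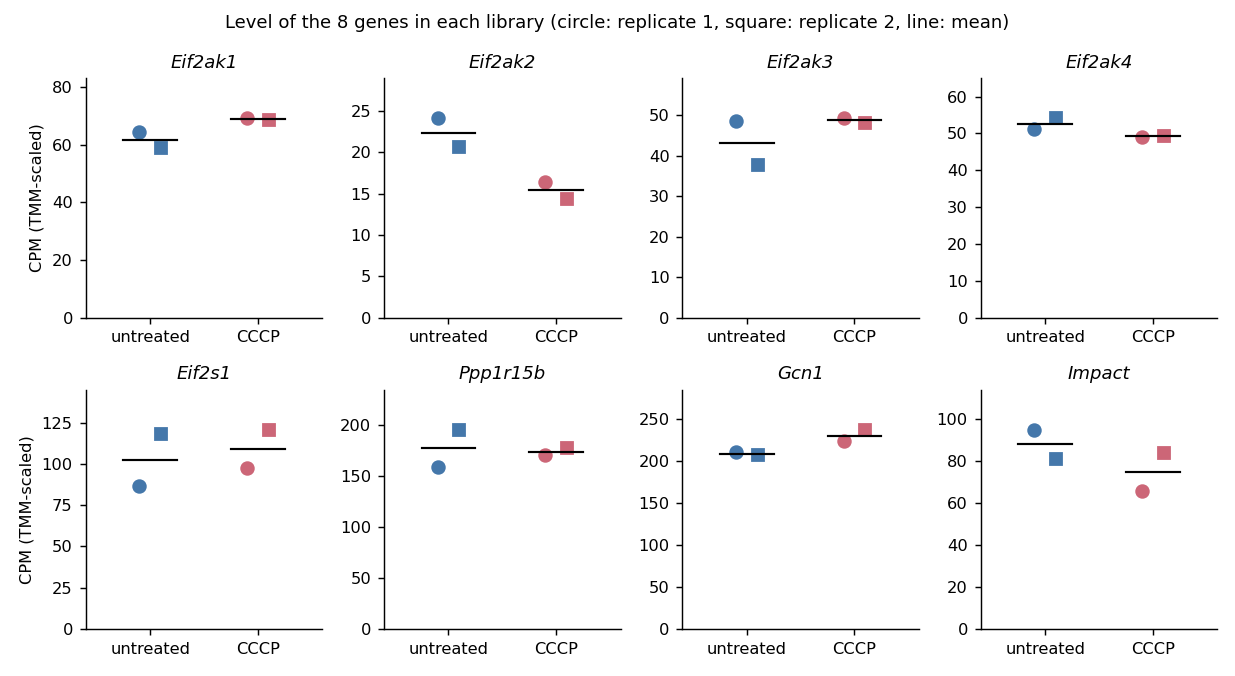
TMM-scaled CPM (vertical axes, from 0) of the 8 genes in the untreated (blue) and CCCP (red) libraries, with replicate 1 as a circle, replicate 2 as a square and the group mean as a line. The CCCP libraries lie below the untreated ones for Eif2ak2 (14.4 and 16.4 against 20.7 and 24.1 CPM), while the groups overlap for Eif2ak3, Eif2s1, Ppp1r15b and Impact.

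Set per kilobase of exon, which allows levels of different genes to be compared, the substrate, its phosphatase subunit and the GCN2 activator were the most abundant. Exon stretches that also belong to another annotated gene were left out of the length, since reads there were not counted. Eif2s1 had a mean of 33.5 CPM per kb over the 4 libraries (range 27.5 to 38.3) and Ppp1r15b 31.4 (28.4 to 35.0), and their ranges overlapped. Gcn1 followed at 25.3 CPM per kb (23.9 to 27.4) and Eif2ak1 at 23.5 (21.3 to 24.9), again with overlapping ranges, which lay below those of Eif2s1 and Ppp1r15b. Eif2ak4 at 9.64 CPM per kb and Eif2ak3 at 9.43 could not be ordered, nor could Eif2ak2 at 4.28 and Impact at 3.83. The median gene tested had 3.79 CPM per kb of its full exon length, shared stretches included. By its own full length Eif2ak2 had 2.85 CPM per kb, so its place beside that median depends on the length used. The value of Impact rests on an exon length of 21202 bases, of which 9117 are a single block at the start of the gene (chromosome 18, 12954690 to 12963806). Dividing the same count by the length without that block gives 6.72 CPM per kb, which holds only if no reads lie in the block; the counts do not show how many do.

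HRI, encoded by Eif2ak1 (chromosome 5, 143817792 to 143902717, plus strand), is the kinase restrained by haem in red cell precursors and the one to which mitochondrial damage is relayed. It had 64.2 and 59.0 CPM in the untreated libraries (replicates 1 and 2) and 69.1 and 68.5 CPM in the CCCP libraries. Both CCCP libraries were above both untreated ones, by a small margin, with means of 61.6 ± 3.72 and 68.8 ± 0.405 CPM (SD, n = 2 in each group). By edgeR the log2 fold change was 0.16 (standard error 0.113, adjusted p 0.533). In the decile of exon length that holds Eif2ak1 (2230 to 2829 bases) the median gene stood at 0.10. With the length trend taken out of each library the log2 fold change of Eif2ak1 was 0.09, and with the GC trend taken out 0.14. Markers of erythroid cells, in which HRI is best known, had a summed level of 2299 and 2868 CPM untreated and 2560 and 4340.4 CPM with CCCP. The sum of the first CCCP library thus lay between those of the untreated libraries. Of the 9 tested, 8 were above 0 in log2 fold change and 2 lay higher without overlap, beside 24% of all genes. The part of these markers in the level of Eif2ak1 was not tested.

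PKR, encoded by Eif2ak2 (chromosome 17, 78850504 to 78882572, minus strand), binds double-stranded RNA and is induced by interferon. Its transcript had 24.1 and 20.7 CPM untreated and 16.4 and 14.4 CPM with CCCP, on 1208, 773, 795 and 523 counted reads. Every CCCP value lay under every untreated value, and in each group replicate 1 was the higher library. Group means were 22.4 ± 2.45 and 15.4 ± 1.39 CPM (SD, n = 2), a fold of 0.688. By edgeR the log2 fold change was -0.54 (standard error 0.173, unadjusted p 0.0198, adjusted p 0.272). The value was -0.42 without untreated replicate 1 and -0.64 without CCCP replicate 1.

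Exon overlap, length, base composition and another cell type's markers bear on how this value is read. Of its 6632 exon bases, 2214 also belong to other annotated genes, 2041 of them to the predicted gene Gm6548 on the same strand and 173 to Gm26637 on the opposite strand, so its count comes from the remaining 4418 bases. In the decile that holds Eif2ak2 by full exon length (5263 to 6760 bases) the median gene stood at -0.10 on the log2 fold change scale. The 4418 bases that count would fall in the decile of 4258 to 5262 bases, with a median of -0.04. In its decile of GC content (41.53% to 44.09%) the median was -0.19. With the trend on full exon length taken out of each library the log2 fold change of Eif2ak2 was -0.39, and with the GC trend taken out it was -0.38. Hepatic markers were lower in both CCCP libraries for 7 of 7 genes, beside 24.8% of all genes, and none of them was at 0 reads in any library. Endothelial markers were below 0 in log2 fold change for 7 of 7. The part of either in the level of Eif2ak2 was not tested.

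The start regions of these 2 kinases, whose values lay apart between the groups in opposite directions, are printed to show what the windows of an abundant and of an interferon-inducible kinase gene hold. They are the 250 bases before the start site from the RefSeq promoter table (GRCm38.p6, the assembly of mm10), at chr5:143817542-143817791 on the plus strand and chr17:78882573-78882822 on the minus strand, with GC boxes (GGGCGG on either strand) and CCAAT boxes (CCAAT on either strand) in capitals.
Eif2ak1: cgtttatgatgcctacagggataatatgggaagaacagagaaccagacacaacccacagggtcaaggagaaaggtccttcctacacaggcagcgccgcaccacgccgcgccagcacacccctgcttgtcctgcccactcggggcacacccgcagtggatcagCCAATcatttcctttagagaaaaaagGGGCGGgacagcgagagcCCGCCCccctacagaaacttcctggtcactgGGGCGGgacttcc
Eif2ak2: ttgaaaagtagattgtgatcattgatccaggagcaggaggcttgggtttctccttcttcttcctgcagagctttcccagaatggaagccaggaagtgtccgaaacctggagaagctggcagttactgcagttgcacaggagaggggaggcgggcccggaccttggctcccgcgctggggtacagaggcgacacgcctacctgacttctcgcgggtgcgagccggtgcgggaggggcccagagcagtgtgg
Eif2ak1 has 3 GC boxes and 1 CCAAT box in this stretch, and Eif2ak2 has none of these letters. In windows of 300 bases (250 before and 50 after the start site), a GC box was found in 35.6% of 32817 windows and a CCAAT box in 37.4%. The core of an interferon response element (GAAA, any 2 bases, GAAA, on either strand) was found in 3.43% of all windows and in 2 of the 7 windows of the 6 genes that the table holds, Eif2ak2 and Eif2s1. Counted from the first transcribed base as 1, it spans bases 19 to 28 in Eif2ak2, inside the first exon, and bases -212 to -203 in Eif2s1. Both are printed with the matching letters in capitals, the first at chr17:78882535-78882564 (minus strand) and the second at chr12:78861840-78861899 (plus strand).
Eif2ak2 first exon: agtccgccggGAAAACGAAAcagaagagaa
Eif2s1 upstream: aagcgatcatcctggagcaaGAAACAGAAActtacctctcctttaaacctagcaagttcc
The core of the composite element bound by ATF4, TGATGNAA on either strand, was in none of the 7 windows of the 6 genes (Eif2ak4 has 2) and in 3.97% of all windows. For comparison, 5 of 7 interferon-induced genes with a window held the interferon core, and 7 of 20 targets downstream of eIF2 phosphorylation held TGATGNAA. A match of letters is a description and not a binding site.

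Of 10 interferon-induced genes listed, 9 were tested, with 7 above and 2 below 0 in log2 fold change. None had an unadjusted edgeR p under 0.05, beside 14.6% of all genes, and 1 lay apart between groups (higher), beside 24%. Their median log2 fold change was 0.17, and it was -0.47 without CCCP replicate 1, -0.12 without untreated replicate 2, 0.50 without CCCP replicate 2 and -0.03 with the length trend taken out. Rsad2, encoding the antiviral enzyme viperin, had 4.65 and 3.61 CPM untreated and 4.47 and 1.16 CPM with CCCP, with overlap between the groups. The gene that lay apart was Ifit3, which encodes an interferon-induced protein. It was hardly detected, at 10 and 8 counted reads untreated and 17 and 18 with CCCP. Of the proteins that bind PKR or double-stranded RNA, 0 of 6 genes had an unadjusted edgeR p under 0.05, beside 14.6% of all genes. Of these 6, 4 lay higher without overlap, beside 24% of all genes. Tarbp2, which encodes the PKR inhibitor TRBP, had 36.1 and 40.2 CPM untreated and 42.3 and 51.3 CPM with CCCP (log2 fold change 0.29, edgeR adjusted p 0.402).

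By the profile over the 4 libraries (log2 CPM centred on its mean), the genes nearest to Eif2ak2 were Zfp560, Upf2, Ptprz1, Rb1 and Baz2b, at Euclidean distances of 0.03 to 0.05. Their log2 fold changes lay between -0.57 and -0.51 and their exon lengths between 5616 and 25088 bases. With 4 libraries many genes can share a profile, and likeness here says nothing of shared function.

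PERK, encoded by Eif2ak3 (chromosome 6, 70844484 to 70905241, plus strand), senses unfolded protein in the endoplasmic reticulum. It had 48.6 and 37.6 CPM untreated and 49.3 and 48.2 CPM with CCCP. The first untreated library lay between the CCCP libraries and the second stood apart below, so the groups overlapped. The log2 fold change of 0.18 (standard error 0.153, edgeR adjusted p 0.613) rests on that library: leaving it out gave 0.02, and leaving out the first untreated library gave 0.38. Of the 6 genes listed as PERK partners, 2 had an unadjusted p under 0.05, both higher, against 5.45% of all genes. Pdia6, a protein disulphide isomerase, had 484 and 466 CPM untreated and 686 and 670.4 CPM with CCCP, a log2 fold change of 0.51 that did not pass in edgeR (adjusted p 0.216) and passed in DESeq2 (adjusted p 0.0107). Hspa5, the chaperone BiP that holds PERK inactive, had 1092 and 971 CPM untreated and 1399 and 1285 CPM with CCCP (log2 fold change 0.38, edgeR adjusted p 0.333). Atf6, the sensor of a parallel branch, stood at -0.06 on the log2 scale.

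GCN2, encoded by Eif2ak4 (chromosome 2, 118388583 to 118475234, plus strand), responds to uncharged tRNA and stalled ribosomes and needs GCN1 on the ribosome to do so, while IMPACT competes for GCN1. Eif2ak4 was the steadiest of the 8, with 51.1 and 54.1 CPM untreated and 49.0 and 49.4 CPM with CCCP. The CCCP values were lower by a narrow margin, and its log2 fold change of -0.10 (standard error 0.113) had an edgeR adjusted p of 0.712. Gcn1 (chromosome 5, 115565117 to 115622654, plus strand) had 211 and 207 CPM untreated and 224 and 238 CPM with CCCP. Both CCCP values were higher, with a log2 fold change of 0.14 (standard error 0.114, edgeR adjusted p 0.581). With 58.56% GC, Gcn1 lies in the highest decile of genes by GC content, whose median log2 fold change was 0.18, and with the GC trend taken out its own value was -0.02. Its exons, at 8692 bases, are in a length decile with a median of -0.20, and with the length trend taken out the value was 0.36.

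Impact (chromosome 18, 12954690 to 12992950, plus strand), an imprinted gene known for its high level in neurons, had 94.8 and 80.8 CPM untreated and 65.7 and 83.8 CPM with CCCP. The first CCCP library was the lowest and the second lay between the untreated ones. Its log2 fold change of -0.23 (standard error 0.161, edgeR adjusted p 0.524) was -0.07 without CCCP replicate 1 and -0.42 without CCCP replicate 2. It is in the decile of the longest genes, whose median was -0.35, and with the length trend taken out its sign turned, to 0.18. With 42.12% GC it is in a low decile by GC content too, and with the GC trend taken out the value was -0.01. Over 8 neural markers, 4 above and 4 below 0, the median was -0.08, with summed levels of 1440 and 1224 CPM untreated and 1350 and 1203 CPM with CCCP. That median covers markers that went both ways. Without overlap, 3 lay higher and 3 lower, beside 24% and 24.8% of all genes. At an unadjusted edgeR p under 0.05, 2 were higher and 2 lower, beside 5.45% and 9.16%. Their part in the level of Impact was not tested.

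The ratio of Gcn1 to Eif2ak4 per kb was 2.51 and 2.33 untreated and 2.77 and 2.92 with CCCP, and that of Impact to Gcn1 was 0.184 and 0.160 untreated and 0.120 and 0.144 with CCCP. Such ratios are taken within a library and do not depend on how libraries are scaled. Neither pair of groups overlapped, but an exact two-sided permutation test of 2 against 2 libraries cannot give less than the p of 0.333 that each had. Of 4 ratios tested this way all had that p, and adjustment over the 4 leaves it at 0.333. Of the 9 genes listed around GCN2, Pelo was higher and Map3k20 lower at an unadjusted p under 0.05 (5.45% and 9.16% of all genes), and 6 lay higher without overlap against 24% of all genes. Among these 6 are the ribosomal stalk genes of the list, with exons of 457 to 1360 bases, in length deciles with medians of 0.22 and 0.19. The median over the 9 genes was 0.27, 0.20 with the length trend taken out and 0.13 with the GC trend taken out. Pelo, a ribosome rescue factor, had 17.6 and 20.2 CPM untreated and 25.1 and 31.2 CPM with CCCP (log2 fold change 0.57, edgeR adjusted p 0.268). Map3k20, the ribosome-stress kinase ZAK, had 24.1 and 27.2 CPM untreated and 17.2 and 20.9 CPM with CCCP (log2 fold change -0.43, edgeR adjusted p 0.334).

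As a share of the summed CPM per kb of the 4 kinases, Eif2ak1 made up 48.0% and 48.4% in the untreated and 51.9% and 52.3% in the CCCP libraries. Eif2ak2 made up 11.3% and 10.7% untreated and 7.72% and 6.91% with CCCP. Eif2ak3 (17.6% to 21.1%) and Eif2ak4 (19.3% to 23.3%) held similar shares. The 2 groups did not overlap for any of the 4 shares, with Eif2ak1 and Eif2ak3 higher and Eif2ak2 and Eif2ak4 lower with CCCP. The shares are bound to sum to the whole, so these are not 4 separate differences. In CPM, 48.8% of all genes did not overlap between the groups, whereas Eif2ak3 itself did overlap. The share of Eif2ak3 was 20.7% and 17.6% untreated and 21.1% and 21.0% with CCCP. The summed level was 48.3 and 43.9 CPM per kb untreated and 48.0 and 47.2 with CCCP, with overlap. Transcripts of HRI were thus the largest fraction of kinase transcripts in all 4 libraries.

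**Figure D2:**
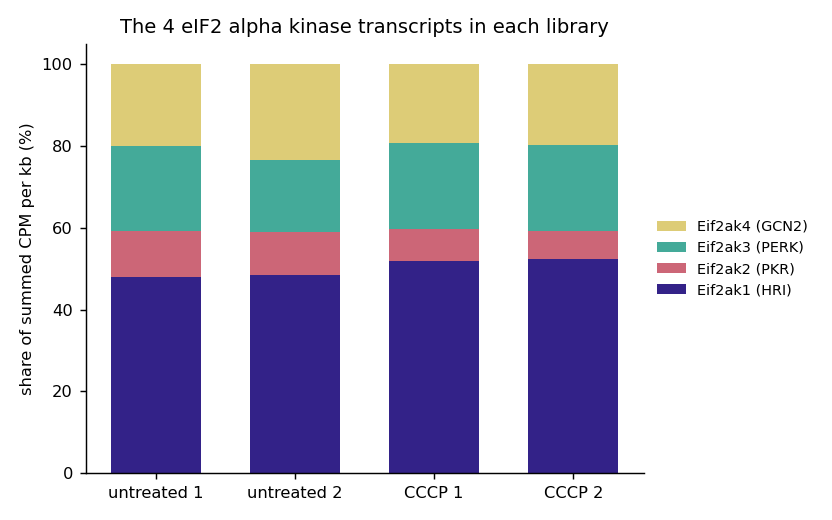
Stacked bars give each kinase gene's share (%) of the summed CPM per kb of the 4 kinases, one bar per library. Eif2ak1 (HRI) takes 48.0% to 52.3% in every library, and the band of Eif2ak2 (PKR) is narrower in the CCCP libraries (6.91% and 7.72%) than in the untreated ones (10.7% and 11.3%).

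The ratio of Eif2ak1 to Eif2ak2 per kb was 4.24 and 4.54 untreated and 6.72 and 7.57 with CCCP. On the log2 scale the mean difference between the groups was 0.70, with SDs of 0.07 and 0.12 (n = 2), and the exact permutation p was 0.333, the smallest that 2 against 2 libraries can give. The 2 genes differ in exon length, and in fits with the trend on full exon length taken out the difference was 0.48.

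The substrate Eif2s1 (chromosome 12, 78862072 to 78887010, plus strand) had 86.6 and 118 CPM untreated and 97.5 and 121 CPM with CCCP. Replicate 2 was the higher library in each group and the gap between replicates exceeded the gap between groups. Its log2 fold change of 0.09 (standard error 0.188, edgeR adjusted p 0.844) was -0.11 without untreated replicate 1, -0.07 without CCCP replicate 2 and 0.35 without untreated replicate 2. At 40.79% GC it is in the lowest decile of genes, with a median of -0.38, and with the GC trend taken out its value was 0.38.

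The genes of the other eIF2 subunits all had values below 0, and their groups overlapped. Eif2s2 (eIF2 beta) had a log2 fold change of -0.03 and Eif2s3x (X-linked eIF2 gamma) -0.16. Eif2s3y, the Y-linked gamma gene, had 34.8 and 19.6 CPM untreated and 19.7 and 27.7 CPM with CCCP (log2 fold change -0.20). All 5 subunits of eIF2B, the exchange factor that phosphorylated eIF2 blocks, had log2 fold changes above 0, from 0.13 for Eif2b3 to 0.44 for Eif2b2. For 4 of them both CCCP libraries were above both untreated ones, beside 24% of all genes. None had an unadjusted p under 0.05, which 14.6% of all genes had, with edgeR adjusted p-values between 0.343 and 0.750. Eif2b5, the catalytic subunit, had 72.6 and 101.7 CPM untreated and 103.4 and 123.6 CPM with CCCP. Eif2b2 had 38.4 and 52.8 CPM untreated and 57.3 and 66.4 CPM with CCCP. For all 5 eIF2B genes, untreated replicate 1 was the lowest library. The median over the list of 8 eIF2 and eIF2B genes was 0.17, and ran from 0.13 to 0.38 as each library was left out. It was 0.17 with the length trend taken out and 0.23 with the GC trend taken out.

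Among phosphatase subunits, Ppp1r15b (chromosome 1, 133131166 to 133139800, plus strand) encodes the constitutive partner that directs protein phosphatase 1 to eIF2 alpha. It had 159 and 196 CPM untreated and 170.4 and 177 CPM with CCCP. Both CCCP values lay between the untreated ones. The log2 fold change of -0.03 (standard error 0.139, edgeR adjusted p 0.942) was 0.15 without untreated replicate 2, -0.16 without untreated replicate 1 and 0.06 with the length trend taken out. Ppp1r15a, the stress-induced partner GADD34, had 37.8 and 45.7 CPM untreated and 56.3 and 60.8 CPM with CCCP. Both CCCP values were higher, and the log2 fold change of 0.49 (standard error 0.140) had an unadjusted p of 0.0124 and an adjusted p of 0.248 in edgeR. With the replicate number as a block the adjusted p was 0.0168, and 0.0892 with the GC trend taken out as well.

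The ratio of Ppp1r15b to Ppp1r15a per kb was 1.75 and 1.78 untreated and 1.26 and 1.21 with CCCP. The constitutive subunit was thus the more abundant transcript in every library, by a smaller factor in both CCCP libraries. On the log2 scale the groups differed by 0.51, with SDs of 0.02 and 0.04 (n = 2) and an exact permutation p of 0.333, the smallest possible. The difference of the fitted log2 fold changes was 0.52, and lay between 0.49 and 0.54 as each library was left out. With the length trend taken out it was 0.33. Ppp1r15b has 5588 exon bases and Ppp1r15a 2333.

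**Figure D3:**
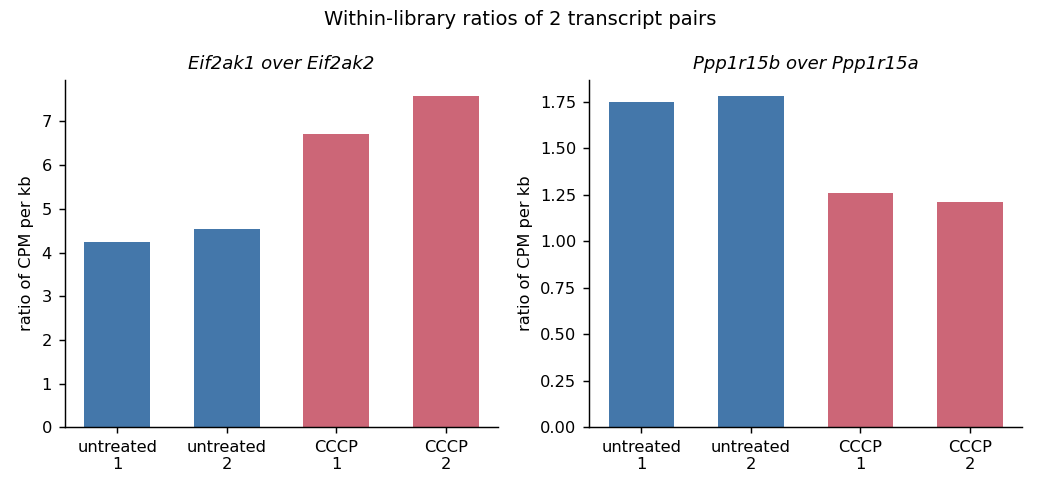
Bars give, for each library, the ratio of CPM per kb of Eif2ak1 to Eif2ak2 (left) and of Ppp1r15b to Ppp1r15a (right), untreated in blue and CCCP in red, with axes from 0. The left ratio is higher in both CCCP libraries (6.72 and 7.57 against 4.24 and 4.54) and the right ratio lower (1.21 and 1.26 against 1.75 and 1.78).

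Of the catalytic subunits of protein phosphatase 1, Ppp1ca had 196 and 268 CPM untreated and 282 and 331 CPM with CCCP (log2 fold change 0.40, edgeR adjusted p 0.373). The groups of Ppp1cb and Ppp1cc overlapped, with log2 fold changes of -0.09 and 0.15. In the relay from mitochondria to HRI, the protease Oma1 cleaves Dele1, which then binds the kinase. Oma1 had 10.51 and 10.2 CPM untreated and 12.1 and 9.26 CPM with CCCP, and Dele1 had 52.6 and 69.8 CPM untreated and 69.9 and 68.1 CPM with CCCP. Both overlapped between groups. Yme1l1, a protease of the same membrane, had 163 and 179 CPM untreated and 122 and 140 CPM with CCCP (log2 fold change -0.38, edgeR adjusted p 0.282). Phb, a scaffold of that membrane, had 73.9 and 96.3 CPM untreated and 114 and 121 CPM with CCCP (log2 fold change 0.47, edgeR adjusted p 0.282). Of this list of 7 genes, Yme1l1 and Phb were the members with an unadjusted p under 0.05, 1 in each direction, beside 5.45% of all genes higher and 9.16% lower.

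Over the 9 lists around eIF2, 78 genes were tested and none passed the adjusted edgeR threshold. At an unadjusted p under 0.05, 8 were higher and 2 lower, where 5.45% of all genes were higher and 9.16% lower. The groups did not overlap for 31 higher and 4 lower genes, against 24% and 24.8% of all genes. The list of targets downstream of eIF2 phosphorylation stood at a median of 0.31 over 21 genes, 15 of them above 0 and 3 at an unadjusted p under 0.05 (Ddit3, Atf5 and Trib3, all higher, beside the 5.45% of all genes). That median depends on the untreated libraries: it was 0.04 when the first was left out and 0.62 when the second was. With the length trend taken out it was 0.19. Trib3, encoding a pseudokinase that binds ATF4 and CHOP, had 38.3 and 56.5 CPM untreated and 72.0 and 82.2 CPM with CCCP (log2 fold change 0.70, edgeR adjusted p 0.249). Ddit3, encoding CHOP, had 36.7 and 37.5 CPM untreated and 56.9 and 54.6 CPM with CCCP. It passed in DESeq2 (adjusted p 0.0141) and not in edgeR (adjusted p 0.166). The initiation factors beside eIF2 had a median of -0.04 and 0 of 8 at an unadjusted edgeR p under 0.05, which 14.6% of all genes had.

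**Figure D4:**
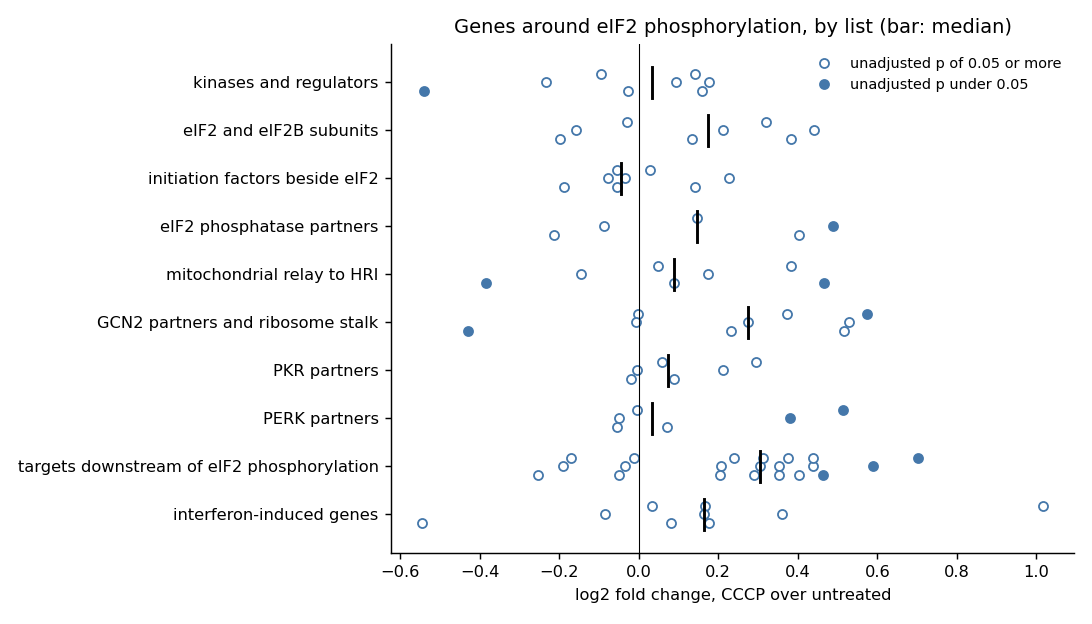
Log2 fold change (CCCP over untreated, horizontal axis) of each tested gene of the 8 kinases and regulators and of the 9 lists around them, with a bar at each median and filled points for an unadjusted p under 0.05. The 8 genes spread from -0.54 to 0.18 around a median of 0.03, and the downstream targets have a median of 0.31, which with other settings is not the highest of the lists (0.19 with the length trend taken out, against 0.23 for the relay to HRI).

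**Figure D5:**
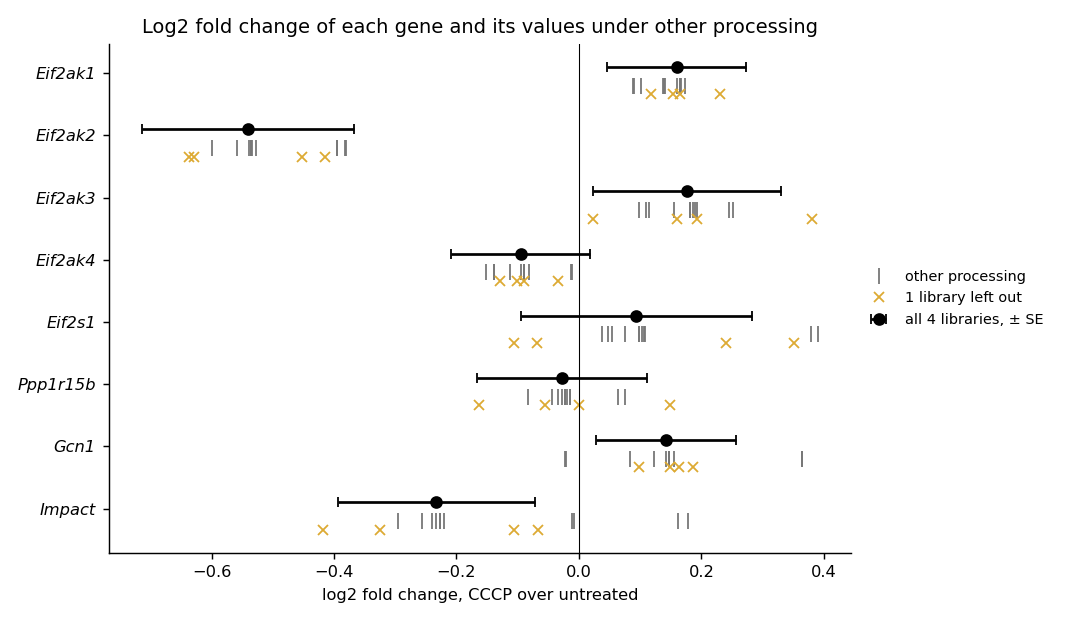
Log2 fold change of each of the 8 genes with all 4 libraries (black points, ± SE), with 1 library left out (crosses) and under other processing (ticks). Eif2ak1, Eif2ak2, Eif2ak3 and Eif2ak4 keep their sign under all 15 alternatives, while Eif2s1, Ppp1r15b, Gcn1 and Impact cross 0 under at least 2 of them.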

How the data were processed

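Poly(A) RNA of 4 libraries was measured, 2 untreated and 2 with CCCP, grouped by sample title. The header of the untreated replicate 1 table names an alignment beginning UM, where that of replicate 2 begins UN; the label was followed. Per the file headers, featureCounts 2.0.3 gave the deposited integer counts, by exons of the mm10 RefSeq annotation. It ran without a strand option; the library kit was a directional one, per the labels' protocols. Its settings leave out reads that touch more than 1 gene or place. HISAT2 and SAMtools are named in the submitters' processing notes. The exon length per gene is the authors' too, per the file headers. The main test was edgeR 4.0.16 (quasi-likelihood, TMM scaling, filterByExpr with a minimum count of 10 and a total of 15, group as the sole term) in R 4.3.3, two-sided, with Benjamini-Hochberg adjustment over 19837 genes. A standard error is the log2 fold change divided by the square root of F. DESeq2 1.42.0 was an alternative. Total counts of 37360968 to 48827826 make 3 reads equal to 0.0599 to 0.0827 CPM; this covers counting error only. Length and GC trends were removed as lowess offsets per library; GC content came from GENCODE transcripts and was known for 91.7% of the genes. All 8 members are named, as could be any gene of the lists of eIF2 and eIF2B subunits, phosphatase partners and the relay to HRI. Of other lists, up to 3 genes a direction with the smallest unadjusted p under 0.05 were eligible, or else the smallest p. For Eif2ak2, the member with the smallest p, the 5 nearest profiles (mean CPM of at least 10) are named. Genes, lists and pairs were chosen with earlier results of these data known.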

Additional observations from a re-analysis of the deposited data

How the results depend on the processing

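Of the 8 genes, none passed an adjusted p of 0.05 in 13 of 15 alternatives. The replicate block, which treats the number in the sample titles as a pairing that no label explains, called 1 gene, Eif2ak2 (log2 fold change -0.54, edgeR adjusted p 0.0366). With the length trend removed beside the replicate block, 1 gene was called, Gcn1 (0.36, edgeR adjusted p 0.0412). Over all alternatives the adjusted p ran from 0.0366 to 0.841 for Eif2ak2 and from 0.0412 to 0.953 for Gcn1. Same-numbered libraries deviated together over all genes (r = 0.360 across 19837 genes, which are not independent) and in 6 of the 8 genes.

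Signs turned in 9 cases. Taking out the length trend put Ppp1r15b at 0.0634 and Impact at 0.178, and adding the replicate block put them at 0.0750 and 0.161. Taking out the GC trend, an alternative added after seeing the data, put Gcn1 at -0.0211, and at -0.0225 with the replicate block. As each library was left out, Eif2s1 ran from -0.106 (without untreated replicate 1) over -0.0691 (without CCCP replicate 2) to 0.351, and Ppp1r15b from -0.163 to 0.149 (without untreated replicate 2). The causes were not tested.

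The count over all genes, 0 in edgeR, was 1107 without the filter on low counts, 594 in DESeq2, 2118 with the replicate block, 1242 with the replicate block and the length trend removed, and 1 to 34 with 1 library left out (the lone library of a group is then assumed to vary like the others). It was 977 with the replicate block and the GC trend removed and 1367 in DESeq2 with the replicate block, both added after seeing the data. Of the 78 genes in the lists, the same settings called 7 without the filter, 2 in DESeq2, 18 with the replicate block, 8 with it and the length trend removed, 4 with it and the GC trend removed and 17 in DESeq2 with the replicate block; with 1 library left out they called 0. Of the genes of these lists named here, the replicate block called Ppp1r15a (edgeR adjusted p 0.0168), Eif2b2 (0.0261), Eif2b5 (0.0381) and Ppp1ca (0.0349). It also called Yme1l1 (edgeR adjusted p 0.0381), Phb (0.0202), Pelo (0.0226), Hspa5 (0.0487), Pdia6 (0.0133), Ddit3 (0.00685), Atf5 (0.0389) and Trib3 (0.00269). Ptprc (edgeR adjusted p 0.0211) and Xist (0.000299), which are outside these lists, were called in that setting too.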

Other observations

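Among the sex-linked transcripts, Xist, which silences an X chromosome, was counted at 1144 and 1339 CPM untreated and at 414 and 174 CPM with CCCP. Its log2 fold change of -2.08 had an adjusted p of 0.166 in edgeR and 3.78e-07 in DESeq2. The Y-linked genes Ddx3y, Kdm5d and Uty overlapped between the groups, as did Eif2s3y and its X-linked partner Eif2s3x. Ddx3y stood at 45.3 and 21.6 CPM untreated and at 27.6 and 45.8 CPM with CCCP. The labels do not give the sex of the embryos.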
